A study of Homo sapiens with 7 samples.

Results

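TAF7 and DR1 are a pair of genes whose protein products regulate the general transcription machinery, and both held clusters of eIF3a reads in HEK293T cells. Their members were the entries of the eIF3a list on the strand of the gene that overlapped TAF7, chr5:140698050-140700340 (hg19, minus strand), or DR1, chr1:93811440-93828150 (hg19, plus strand). The rule found 8 of the 4013 entries, 2 at TAF7 and 6 at DR1, and each entry was a read cluster of its own. The genes were chosen by number of clusters, covered length, spacing and summit height in this same list, so those values and their ranks are given as a description with no test.

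The eIF3a data came from PAR-iCLIP of 2 replicates of HEK293T, a line of human embryonic kidney cells with the large T antigen of SV40. Cells took up 4-thiouridine for 8 h, ultraviolet light of 354 nm joined protein to the labelled RNA, and an antibody against eIF3a pulled down the RNA fragments that were sequenced. The other 5 samples were m6A libraries, from HepG2, a liver carcinoma line, after heat shock (2), from HEK293T after heat shock (1) and from HepG2 controls (2). Heat-shocked cells spent 1 h at 42 °C and then 6 h at 37 °C. None of these 5 were analysed here. For the eIF3a samples the labels give no heat shock and name no control immunoprecipitation, so contact is described without a background.

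Transcription by RNA polymerase II starts with TFIID, a complex of the TATA-binding protein TBP and its associated factors (TAFs). TAF7 is a TFIID subunit that binds the largest subunit, TAF1, and inhibits its acetyltransferase activity. DR1, also called NC2 beta, is a histone-fold protein that pairs with DRAP1 to form negative cofactor 2, which binds TBP on promoter DNA and keeps TFIIA and TFIIB from joining. eIF3, on the side of translation, is the large factor through which the small ribosomal subunit is recruited to mRNAs, and eIF3a is one of its subunits. The human TAF7 gene has no introns, so a distance along it is also a distance along its mRNA. For DR1, whose gene is spliced, distances are along the genome, and exons were not analysed here.

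Coverage at TAF7 ran over the start of the gene interval. The ends of both intervals are round numbers and were not matched to a transcription start. The bases just before the RefSeq transcription start of each gene are shown, from RefSeq promoter sequences on GRCh38.p14, which held both symbols. Each line gives the 30 bases before that start, 5′ to 3′ on the strand of the gene, with capitals marking a GC box (GGGCGG) or the core of an ETS site (CCGGAAG), searched on both strands.
TAF7, GRCh38.p14 chr5:141320785-141320814, minus strand: gccgcctcCCGCCCcgcgtcgcgacgtagc
DR1, GRCh38.p14 chr1:93345877-93345906, plus strand: gaaatctgagggaacgaggCTTCCGGtggc
In the whole RefSeq window, 250 bases before to 50 after the start, TAF7 had 3 GC boxes and no ETS core, and DR1 had 2 of each. A GC box occurred in 45.0% of the 35116 human promoters in the table and this ETS core in 10.3%. The letters TATAAA, which 11.5% of promoters held on one strand or the other, were in neither window. None of the matches overlapped another, and a match describes letters only. The RefSeq span of TAF7 on GRCh38 was 2295 nt, against 2291 nt for the hg19 interval, and that of DR1 was 23587 nt, against 16711 nt, so the start sites of the builds were not matched to each other.

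Both genes had their eIF3a clusters in the 5′ part of the interval and none listed beyond. At TAF7 the clusters lay between 12 nt before the first base of the interval and base 721. Downstream of that, 1570 nt, or 68.5% of the TAF7 interval, held no listed entry. At DR1 they lay between bases 39 and 671, and the remaining 16040 nt, or 96.0% of the interval, held none. Because DR1 is spliced and its exons were not analysed, its share is one of genomic sequence and cannot be set against that of TAF7. Filters of the list are unknown, so an empty stretch does not show that eIF3a made no contact there.

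**Figure D1:**
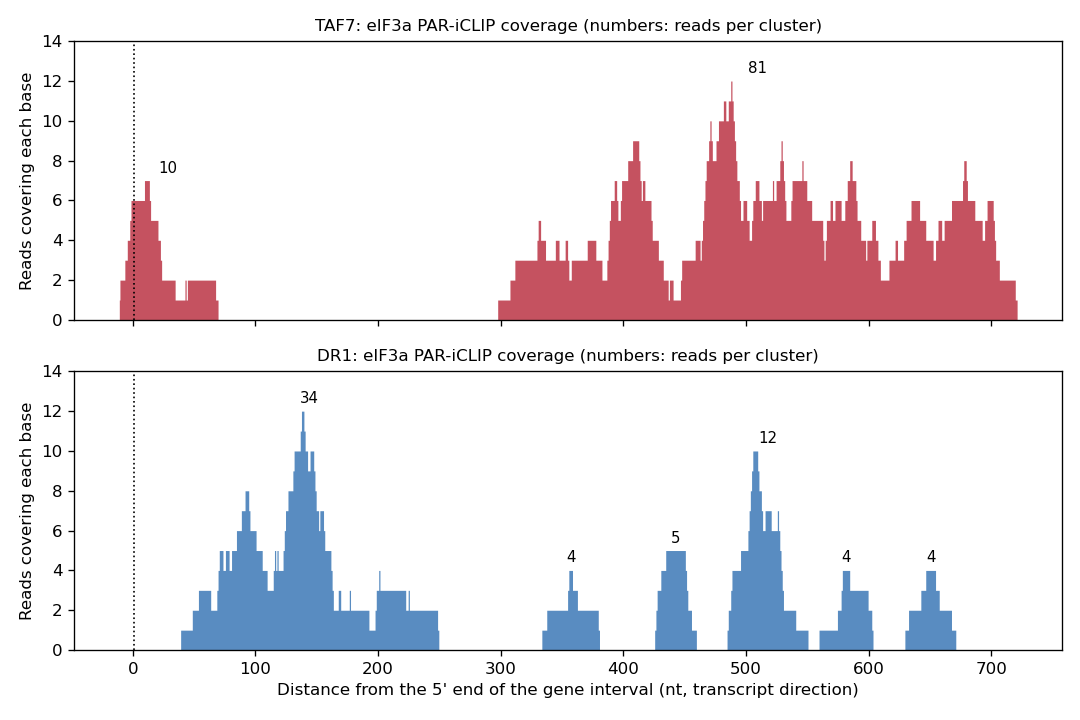
Read coverage at TAF7 (top) and DR1 (bottom) against the distance in nt from the 5′ end of the gene interval (dotted line), in the direction of transcription; the number above each cluster is its reads. TAF7 has 10 reads at the start and 81 in 1 unbroken cluster, while DR1 has 34 reads in its first cluster and 4 to 12 in the other 5. The first DR1 cluster is drawn from its first listed base and may lie up to 23 nt further left.

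The 2 TAF7 clusters held 91 reads in all (95% exact Poisson interval 73.3 to 112), and the 6 DR1 clusters held 63 (48.4 to 80.6). Reads were counted from the coverage, since each read spans 25 nt. Each start position held 1 read in all 8 clusters, as in all but 10 of the 3113 distinct profiles of the list, so these counts are numbers of distinct start positions. With 1 read per start, coverage cannot pass 25 reads, and reads and summits understate repeated reads, if there were any. The Poisson intervals cover counting error only and do not allow for this limit. No entry of the list is assigned to a replicate, so no value has a replicate error. Per length, TAF7 had 18.0 reads per 100 nt of covered sequence (14.5 to 22.1) and DR1 had 14.2 (10.9 to 18.2). These intervals are not a test between the genes, which were chosen by values of this same list. The mRNA levels behind the reads are not in the list, so reads cannot be turned into contacts per molecule.

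The TAF7 cluster at the start, chr5:140700272-140700351, held 10 reads over 81 nt with a summit of 7 reads. Its summit lay at bases 10 to 13 of the interval. In iCLIP the first base of a read lies next to the base at which reverse transcription stopped, often the crosslinked one. The 10 reads had their first base at -12, -11, -7, -5, -3, -2, 10, 19, 43 and 45, where -1 is the base just before the interval. Thus 6 of the 10 began before the first base of the interval, within 12 nt of it. The same 6 did so when the coordinates were read 1 nt further on, which matters because listed ends are uncertain by 1 nt. The first base of the interval is a round number and was not matched to a transcription start. These positions therefore do not show reads that begin before that start.

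After a gap of 228 nt came the long TAF7 cluster, chr5:140699620-140700042, with 81 reads over 424 nt from base 298 to base 721. It held 89.0% of the TAF7 reads. Its summit was 12 reads on 1 base, number 488, 2.51 times its mean coverage of 4.78 reads. The first cluster had a comparable ratio of 2.27 with a mean coverage of 3.09 reads. At the summit of the long cluster 12 of its 81 reads overlapped, and at that of the first cluster 7 of 10 did.

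Inside that long cluster coverage formed a chain of 8 maxima, counting those that stood at least 3 reads above the coverage around them. They reached 5 reads at base 331, 9 at 408, 12 at 488, 9 at 529, 8 at 546, 8 at 585, 6 at 635 and 8 at 678, each given by its first base. Neighbouring maxima were 17 to 78.5 nt apart from middle to middle, with a median of 41 nt. The number of maxima depends on the height asked for: it was 14 with 2 reads and 5 with 4 reads, a choice made after seeing the data. At 3 reads, the 11 other clusters of 318 to 565 nt had a median of 8 maxima (4 to 13). The 39 other clusters of 61 to 108 reads had a median of 6 (3 to 15). The number in the long TAF7 cluster was thus usual for its length. Coverage did not reach 0 inside this cluster or inside any other cluster of either gene, so unbroken coverage is not a trait of this one. Where at least 3 reads were asked for, the long TAF7 cluster came apart into 5 stretches, at bases 312 to 355, 358 to 382, 387 to 432, 448 to 609 and 617 to 706. The fourth stretch was the longest, 162 nt, and held the summit.

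Read starts were spread along the whole of the long cluster. Its 81 start positions filled 20.2% of those possible, against 18.2% in the first DR1 cluster. Counted by the first base of the read, 17 reads began in bases 301 to 400, 21 in 401 to 500, 23 in 501 to 600 and 19 in 601 to 700. The widest gap between neighbouring starts was 22 nt and the median gap 4 nt. In both TAF7 clusters together, 27 of 89 gaps (30.3%) were 1 nt, against 33.9% of the 34843 gaps in all clusters on the primary chromosomes.

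DR1 showed a different layout, a broad first cluster and a row of small ones. The first, chr1:93811478-93811664, held 34 reads over 211 nt with a summit of 12. Its listed interval was 187 nt, 24 nt shorter than the coverage, and which end was cut is not given. Placed from the first listed base it covered bases 39 to 249, with the summit at base 138. Placed up to the last listed base it covered 16 to 226, with the summit at 115. Of the 8 members it was the only one shortened by more than the usual 1 nt. It had 3 maxima, of 8, 12 and 4 reads, 45.5 and 62.5 nt apart, and held 54.0% of the DR1 reads.

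The 5 smaller DR1 clusters followed, and all but one had 4 or 5 reads. The second, chr1:93811773-93811818, had 4 reads over 47 nt. The third, chr1:93811865-93811897, had 5 reads over 34 nt, all of which overlapped for 16 bases. The fourth stood out among them, chr1:93811924-93811988, with 12 reads over 66 nt and a summit of 10 reads at bases 506 to 509. The fifth, chr1:93811999-93812041, and the sixth, chr1:93812069-93812109, had 4 reads each over 44 and 42 nt. A summit equal to the number of reads, as in clusters 2, 3, 5 and 6, means that all reads of the cluster shared at least 1 base.

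Spacing at DR1 was close. From the 5′ end, the first gap was 84 to 107 nt, depending on the placement of the shortened cluster, and the other gaps were 45, 25, 9 and 26 nt. Joining clusters at most 50 nt apart left 2 at DR1, the first cluster and a stretch of the other 5, while TAF7 still had 2. The larger number of clusters at DR1 thus rests on gaps of 9 to 45 nt. Over the span from first to last covered base, coverage filled 68.9% of 733 nt at TAF7. At DR1 it filled 70.1% of 633 nt, or 67.7% of 656 nt with the other placement of its first cluster. The DR1 span is one of genomic sequence whose exons were not analysed, so these shares are not a comparison along mRNA.

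**Figure D2:**
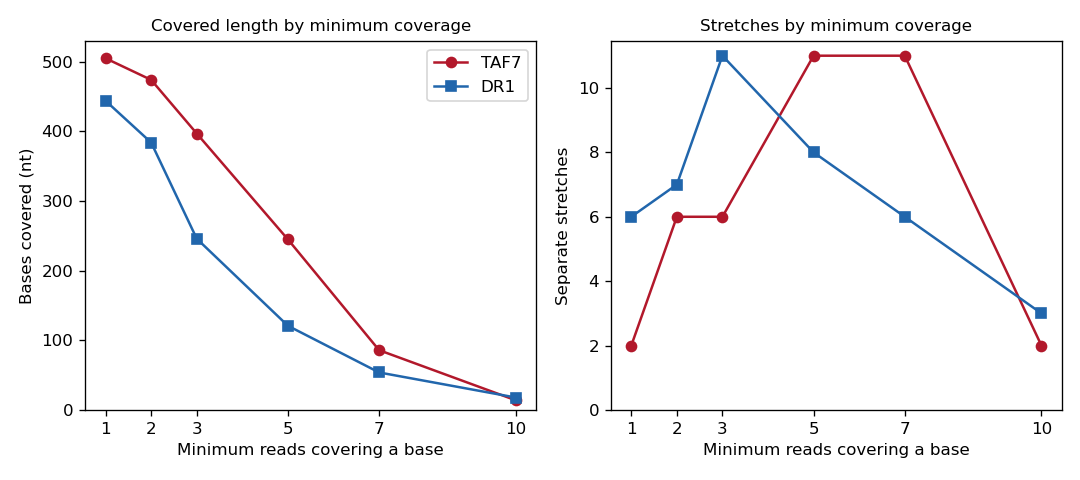
Bases covered (left, in nt) and number of separate stretches (right) at TAF7 and DR1, for a rising minimum number of reads over a base. TAF7 keeps 245 nt at 5 reads or more against 121 nt for DR1, and at 10 reads or more the genes lie close, with 14 nt and 18 nt.

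Asking for deeper coverage separated the genes at middle depths and not at the top. With at least 3 reads, TAF7 kept 397 nt and DR1 246 nt. With at least 5 reads, TAF7 kept 245 nt in 11 stretches and DR1 121 nt in 8. With at least 10 reads, 14 nt remained at TAF7 and 18 nt at DR1. The highest coverage was 12 reads at both genes. Coverage of 12 reads lay near the middle of the long cluster at TAF7 and in the first cluster at DR1. Bases with 10 reads were also found in the fourth DR1 cluster, at 506 to 509. By the first base of the read, 12.1% of the reads at TAF7 began at or before base 300, against 54.0% of those at DR1.

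Within the whole list the long TAF7 cluster was among the longest, and the 8 clusters of both genes ran from 4 to 81 reads. The list held 3566 clusters on the primary chromosomes after entries of the same coverage at 1 place were counted once, with a median of 6 reads, 61 nt and a summit of 5. By length the long TAF7 cluster was the third, and by reads it ranked 16, with 18 clusters (0.505%), itself included, having as many or more. Its summit of 12 was reached or passed by 307 clusters (8.61%). The first DR1 cluster ranked 72 by length and 174 by reads, and 5.22% of clusters had as many reads or more. The TAF7 cluster at the start and the fourth DR1 cluster, with 10 and 12 reads, lay in the upper part of the list, where 32.6% and 25.8% had as many or more. The remaining 4 DR1 clusters, with 4 or 5 reads, were below the median of the list.

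**Figure D3:**
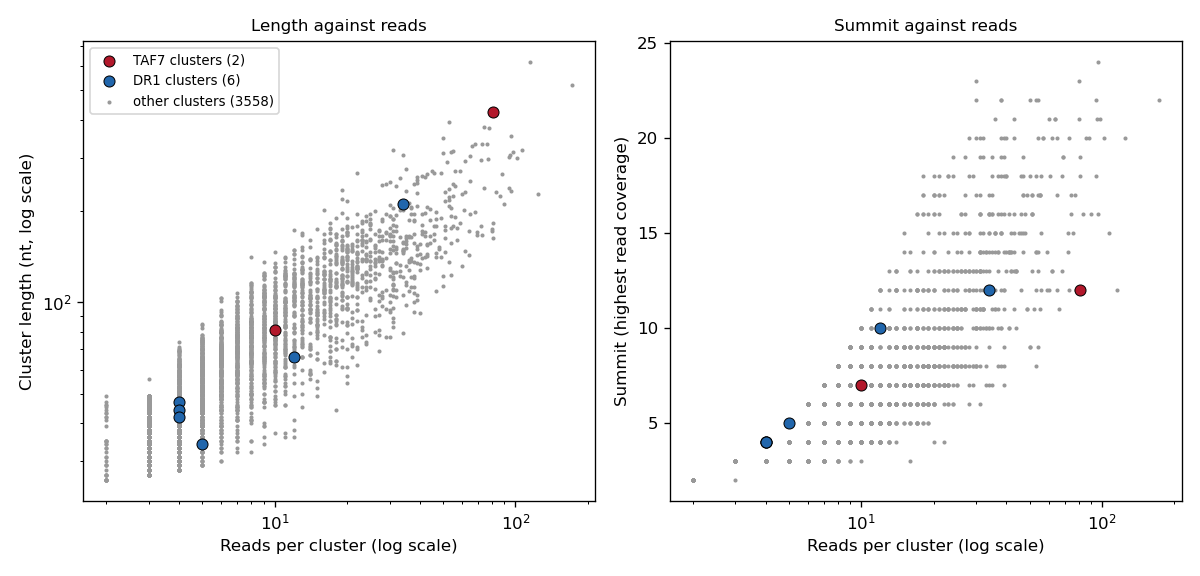
Length (left, nt) and summit (right, reads) of every cluster on the primary chromosomes against its reads, with TAF7 and DR1 clusters in colour and the other 3558 in grey. The TAF7 cluster of 81 reads and 424 nt lies at the top right for length and low for its reads in summit, at 12.

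For its number of reads, the long TAF7 cluster was long and low. Between 61 and 108 reads there were 39 other clusters, with a median length of 238 nt and a median summit of 18. None of the 39 was longer. Their summits ran from 11 to 24: 35 were higher than 12, 3 were equal and 1 was lower. Among the 11 other clusters of like length, 318 to 565 nt, its summit was not unusual, since their median was 13 and their summits ran from 8 to 22. Of the 213 other clusters with 26 to 45 reads, 20 were longer than the first DR1 cluster, and the first DR1 cluster had a summit of 12 against a median of 13 among them.

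The 5 clusters nearest to the long TAF7 one in reads, length and summit together lay on chromosomes 10, 1, 7, 1 and 6. The nearest, chr10:102106912-102107261 (plus strand), held 78 reads over 375 nt, 350 nt of them listed, with a summit of 12. It had 8 maxima, and the others, in the order below, had 13, 5, 4 and 13. Next came chr1:149858191-149858232 (minus strand), with 73 reads over 332 nt and a summit of 12. Only 42 nt of it were listed, so its full position is not known. It was followed by chr7:139044639-139044970 (plus strand), with 68 reads over 333 nt and a summit of 13. The cluster at chr1:115292451-115292827 (minus strand) held 74 reads over 378 nt with a summit of 16. The last, chr6:26056657-26056699 (minus strand), held 76 reads over 332 nt, 43 nt of them listed, with a summit of 15. Nearest to the first DR1 cluster was chr12:112847224-112847435 (minus strand), with 36 reads over 213 nt and a summit of 11. It had 1 maximum, against 3 in the first DR1 cluster. Likeness here was the distance on log2 reads, length and summit, and names for these loci were not used because no hg19 annotation was.

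As regions, made by joining same-strand clusters with gaps of up to 1000 nt, both genes ranked high among the 2877 of the list, TAF7 by reads and DR1 by number of clusters. TAF7 ranked 22 by reads and 11 by covered length. It was 1 of 406 regions with 2 clusters, whose median was 14 reads, and 17.9% of all regions had 2 or more clusters. DR1 ranked 69 by reads and 23 by covered length. By reads per covered base both genes ranked lower, TAF7 at 365 and DR1 at 721. Only 10 regions (0.348%) had 6 or more clusters. Exactly 6 were found in 5 regions, with 27 to 63 reads and a median of 56, and DR1 had the most. The highest number of clusters in a region was 9.

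**Figure D4:**
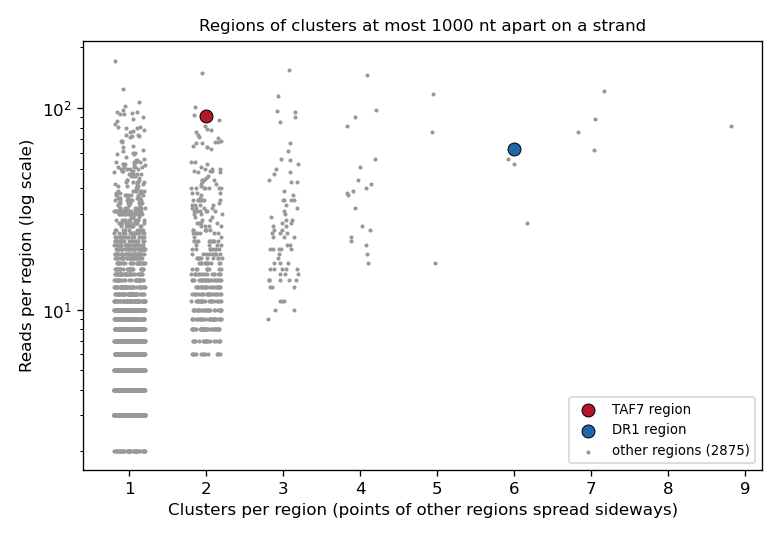
Reads per region (log scale) against the number of clusters per region, for TAF7, DR1 and the other 2875 regions; grey points are spread sideways to be seen. TAF7 lies near the top of the regions with 2 clusters, at 91 reads, and DR1 at 63 reads is the highest of the 5 regions with 6.

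Neither gene had another listed cluster close by, and how usual such distances are in the list was not analysed. At TAF7 the next cluster on the same strand was 672378 nt downstream and 2849168 nt upstream, and at DR1 it was 1770811 nt downstream and 165155 nt upstream. No entry lay on the opposite strand within either interval, the nearest being 628460 nt from the TAF7 clusters and 165567 nt from those of DR1. In the RefSeq table no other gene overlapped either gene. TAF7 lay between SLC25A2, a mitochondrial ornithine carrier, and PCDHGA1, a protocadherin, and DR1 between CCDC18-AS1, a long noncoding RNA, and the pseudogene LOC100421273.

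Exact repeats of the larger clusters were not found elsewhere in the list. No other entry had the coverage profile of either TAF7 cluster or of the first 5 DR1 clusters. The sixth DR1 cluster, with 4 reads, had the profile of 1 other locus, and whether these loci share reads was not tested. In the long TAF7 cluster 111 stretches of 40 nt with at least 10 starts could be searched, and in the first TAF7 cluster 0. The first DR1 cluster had 40 such stretches and the fourth had 4. Of these stretches, 0 loci elsewhere in the list shared one in identical form. Copies at loci that are not listed, and partial copies without an identical stretch, cannot be seen in this search.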

How the data were processed

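The submitters' processing notes name Bowtie and hg19 for the eIF3a reads, without a version. How clusters were called and filtered, how duplicates were treated and whether replicates were pooled is not given in the sources used here. In the values, all but 10 of the 3113 distinct profiles held at most 1 read per start position. For the series the authors deposited 1 list for the series, with a coverage profile per entry and a signal that equalled the highest read coverage of the profile in every entry. Units were read from the values, as the list has no header. Library depth is unknown.

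Reads per cluster were the area of the profile divided by 25 nt, and read starts came from splitting it, which was exact for all distinct profiles. Simulated profiles used to check the split were also built from reads of 25 nt, so they do not test that length. Profiles were read from left to right on both strands: of 1208 profiles with at least 17 steps, 5 recurred mirrored on the opposite strand and 0 unmirrored. Coordinates are hg19, counted from 1 with the list read as 0-based, uncertain by 1 nt. Profiles were placed from the first listed base. Maxima were found with scipy 1.17.1, and Python 3.11.15, numpy 2.4.6, pandas 2.3.3 and matplotlib 3.10.9 were used.

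No test was run, since the list has no replicates, groups or controls. Members, lists and alternatives were chosen with earlier results of these data known. Other TFIID, NC2 and general factor genes were to be looked up only with an hg19 annotation and were not analysed here. Named by rule were all clusters of both genes and the 5 nearest to the longest TAF7 cluster. The cluster nearest to the first DR1 cluster was added after values were seen.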

Additional observations from a re-analysis of the deposited data

How the results depend on the processing

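Of 23 alternatives, 20 stayed within 1.5 times of the reported value. The number of clusters at DR1 was 2, against 6 as reported, when those at most 50 nt apart were joined, which follows from the joining itself. In the long TAF7 cluster the count of maxima, an alternative added after seeing the data, was 14 and 5 with a required height of 2 and 4 reads, against 8. The rank of the TAF7 region by reads was 19 to 26 and that of DR1 58 to 80 over joining distances of 200 to 5000 nt. No paired analysis was possible because no entry is assigned to a replicate and none of the m6A samples was analysed here. Small clusters of 4 or 5 reads limit what can be said of the downstream part of DR1, and library depth is unknown.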
